A study of Homo sapiens with 6 samples.

Results

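The untreated state of RT4 cells was set against that of RT112 and SW780 cells, the 3 FGFR3 fusion-positive bladder cancer (BC) cell lines of the study. The 3 DMSO libraries of 6 libraries in all carried this comparison, and it was made at each of the 10066 loci of the gene table. The value for a locus was the log2 of RT4 DMSO FPKM plus 1, minus the log2 of the mean RT112 and SW780 DMSO FPKM plus 1. FPKM is the number of sequenced fragments scaled by transcript length and by library size, so levels can be set side by side between genes. RT4 and RT112 cells carry an FGFR3-TACC3 fusion, and SW780 cells carry an FGFR3-BAIBP2L1 fusion, spelled here as in the labels. Cells received the solvent DMSO or the histone deacetylase inhibitor quisinostat for 2 days. The quisinostat dose was 50 nM for RT4, 10 nM for RT112 and 25 nM for SW780 cells. RT4 cells were grown in McCoy's medium and the other lines in DMEM, RT112 cells with added L-glutamine and non-essential amino acids. All media held heat-inactivated serum. The line and its medium therefore cannot be told apart in any difference of RT4. There was 1 library per line and treatment, so no difference has a replicate check, and no test was made. Of the second RT4 library, from quisinostat-treated cells, it was asked at each locus whether the difference lasted.

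The bladder is lined by urothelium, in which basal cells renew the tissue and luminal umbrella cells face the urine. Umbrella cells cover their surface with plaques of uroplakins and are marked by transcription factors such as GATA3, PPARG and FOXA1. Basal cells instead carry keratins such as KRT5 and the factor TP63. BC cell lines keep parts of these programs, and FGFR3-altered bladder tumors are mostly of the luminal papillary kind.

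The median FPKM over loci was 6.86 in RT4 DMSO, 6.59 in RT112 DMSO and 6.93 in SW780 DMSO. The median difference of RT4 from the mean over all loci was -0.05. Between 288 and 534 loci per DMSO library were listed at exactly 0. Some of these zeros fell on loci with a high level elsewhere, and 10 loci at 0 in RT4 DMSO had at least 5 FPKM in both other lines. A listed 0 is therefore given as such, without a fold. The labelled cell type was checked against its markers. The epithelial genes KRT8 (280 FPKM in RT4 DMSO, 143 in RT112, 291 in SW780) and EPCAM (62.4, 58.3 and 53.3 FPKM) were present in every line. None of 14 immune cell markers and none of 6 endothelial markers matched a name of the table. Names of other kinds, such as SMAD2 and SMAD4, were missing too, so a missing name does not show that a gene was unexpressed. Of 11 fibroblast markers, 4 matched, and the highest of these in RT4 DMSO was COL3A1, at 1.13 FPKM. LUM, the fibroblast proteoglycan lumican, was listed at 0 in RT4 DMSO but had 135 FPKM in RT112 DMSO and 8.18 in SW780 DMSO. The summed level of the 4 markers was 1.16, 136 and 11.4 FPKM in that order, and the part of such expression in the differences was not tested. In such bulk libraries, fewer cells of a kind and less RNA per cell cannot be told apart.

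RT4 stood apart in both directions. Against the mean of the other lines, 1053 of 10066 loci (10.5%) were higher in RT4 by at least 1 on the log2(FPKM + 1) scale, and 1075 (10.7%) were lower by at least 1. A mean can be set by 1 line, so both lines were then asked separately. By at least 1 against each line, 717 loci (7.12%) were higher in RT4 and 452 (4.49%) lower. The same count, both directions together, was 1169 for RT4, 717 for RT112 and 663 for SW780. RT4 differed by at least 1 from RT112 at 24.3% of loci and from SW780 at 23.3%, while RT112 and SW780 differed from each other at 17.1%. Of the 717 higher loci, 591 were protein-coding genes, 9 long noncoding RNAs and 12 pseudogenes, and 88 had no gene name. Of the 452 lower loci, 330 were protein-coding, 24 long noncoding and 15 pseudogenes, and 73 had no name. The scatter of all loci shows most points along the diagonal and a fringe of loci close to 0 in 1 axis.

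**Figure D1:**
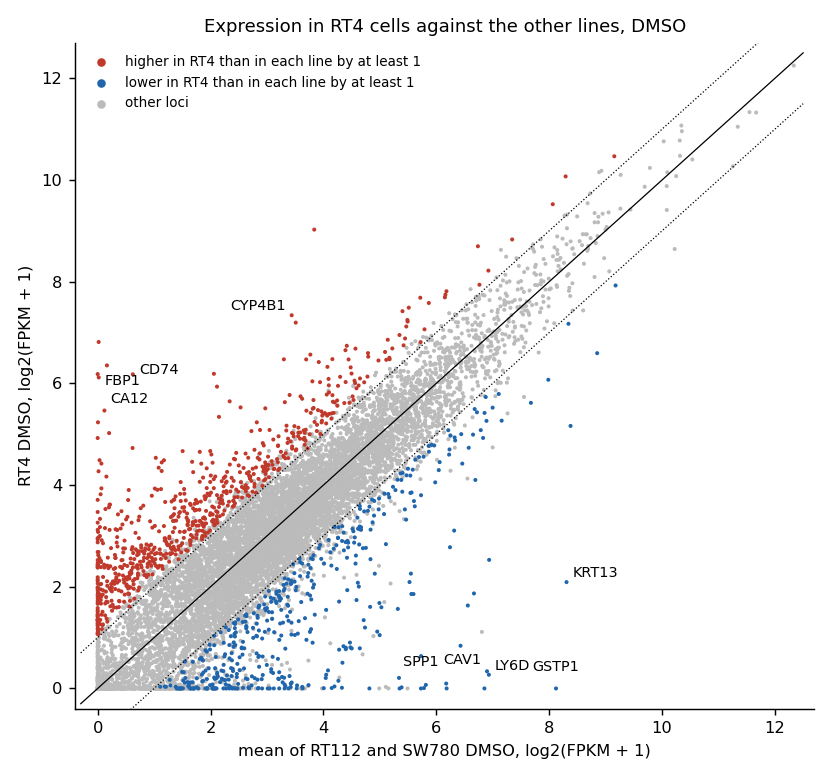
Each point is 1 locus, with the mean of RT112 and SW780 DMSO on the x axis and RT4 DMSO on the y axis, both as log2(FPKM + 1). The solid line is equality and the dotted lines lie 1 unit from it. The 717 loci higher in RT4 than in each line are red, and the 452 lower ones are blue. FBP1 and CA12 lie near 0 on the x axis, and GSTP1 and LY6D near 0 on the y axis.

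The loci furthest above both lines were genes close to silent in RT112 and SW780. FBP1, the fructose bisphosphatase of gluconeogenesis, had 71.6 FPKM in RT4 DMSO and was listed at 0 in both others. The RT4 quisinostat library held 27.5 FPKM of FBP1. Both RT4 libraries thus held this metabolic enzyme, and it was listed at 0 in both other lines under DMSO. IGFBP5, a secreted binding protein of insulin-like growth factors, had 80.8 FPKM in RT4, 0.0995 in RT112 and 0.141 in SW780, a difference of 6.19. CA12, a membrane-bound carbonic anhydrase, had 68.4, 0.0202 and 0.00551 FPKM in the same order, a difference of 6.10. CD74, the invariant chain that escorts MHC class II molecules, had 71.4, 0.0553 and 1.02 FPKM, a difference of 5.56. For all 3 genes RT4 was far above both lines, which lay close together at the bottom of the scale. MAL, a proteolipid of apical membrane traffic, followed with 43.2 FPKM in RT4, 0.0635 in RT112 and 0.109 in SW780. Other loci among the 15 furthest above were TRBC2, C10orf99, SLC38A4, RAB38, MAGEA9B, SH3GL2, TOX3, MAGEA9 and GATM. SLC38A4 is an amino acid transporter, RAB38 a small GTPase of lysosome-related organelles, SH3GL2 an endophilin and GATM the enzyme that opens creatine synthesis. MAGEA9 and MAGEA9B are near-identical cancer-testis antigens, and TRBC2 has a close copy in the T cell receptor locus, so reads may be split or shared at these genes. Over the 15 loci the smaller of the 2 pairwise differences ran from 3.75 to 6.78, and 7 of the 15 were listed at 0 in a DMSO library.

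The loci furthest below both lines included genes that RT112 and SW780 expressed strongly. GSTP1, a glutathione transferase of detoxification at chromosome 11, 67583595 to 67586656, was listed at 0 in RT4 DMSO against 263 FPKM in RT112 and 291 in SW780. It was also listed at 0 in RT4 quisinostat. LY6D, a surface protein of squamous and basal epithelium, had 0.205 FPKM in RT4, 94.8 in RT112 and 147 in SW780, a difference of -6.66. CAV1, the coat protein of caveolae, had 0.263, 59.0 and 178 FPKM, a difference of -6.56. KRT13, a keratin of stratified mucosa at chromosome 17, 41500981 to 41505705, had 3.26, 431 and 200.5 FPKM, a difference of -6.22. In each of these genes RT4 was the low library and the other lines were both high. SPP1, the secreted matrix protein osteopontin, had 0.069 FPKM in RT4, 48.8 in RT112 and 93.7 in SW780. PLAT, the tissue plasminogen activator, had 0.154, 50.1 and 28.8 FPKM. The other loci among the 15 furthest below were IGFL2-AS1, EMP1, CEACAM6, NLRP2, PMEPA1, OAT, TSPYL5, MYEOV and FXYD5. OAT is the ornithine aminotransferase of mitochondria, PMEPA1 a membrane protein induced by TGF-beta, and CEACAM6 a cell adhesion molecule. IGFL2-AS1 runs antisense to neighbouring genes, and whether strand was used in the assembly is not given in the sources used here, so its reads may include theirs. The larger of the 2 pairwise differences ran from -8.05 to -3.80 over the 15. The plot of these loci shows the gap between RT4 and the other lines for each.

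**Figure D2:**
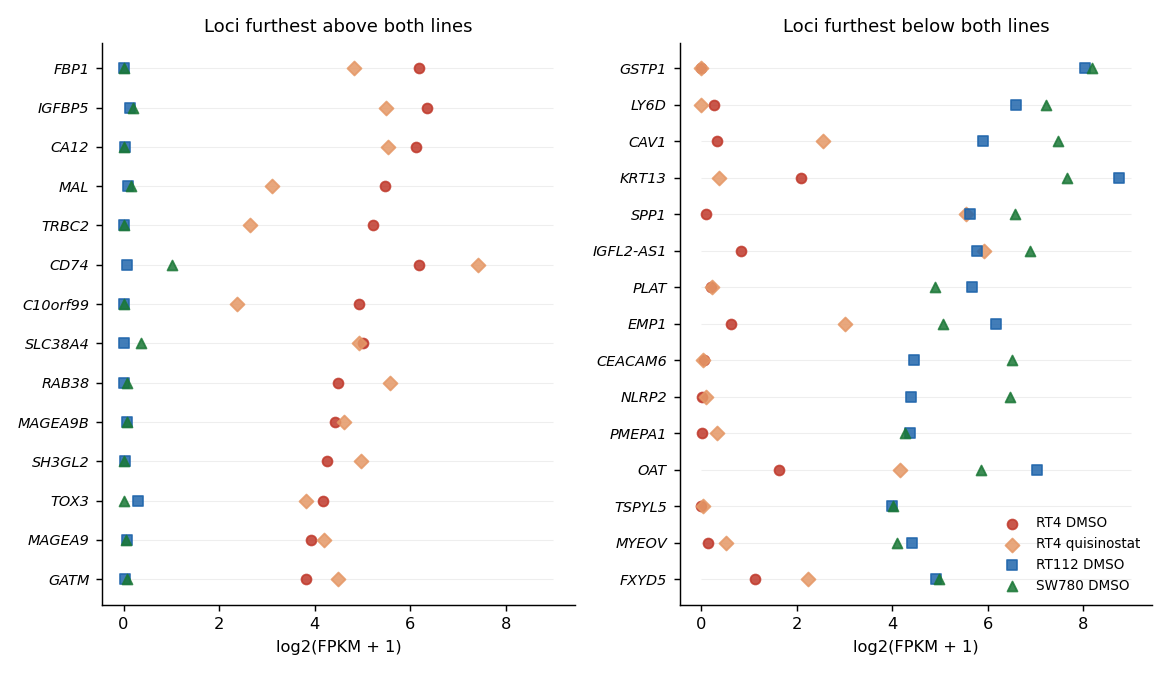
Levels of 14 of the 15 loci furthest above (left) and of the 15 furthest below (right) both other lines, as log2(FPKM + 1), with 1 symbol per library and no error because there was 1 library each. On the left both RT4 symbols lie right of RT112 and SW780 in every row drawn. On the right the RT4 quisinostat symbol of SPP1 and of IGFL2-AS1 lies among the other lines.

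Sequence just before the gene start is shown for the first 3 loci of each direction for which at least 150 bases preceded both the RefSeq and the GENCODE start of the gene, so that the base makeup of both sets can be seen. The sequences are from RefSeq, build GRCh38.p14, 5′ to 3′ on the strand of the gene, and capitals mark each CG, the dinucleotide that carries DNA methylation. IGFBP5 lies at chr2:216695550-216695799 on the minus strand, MAL at chr2:95025458-95025676 on the plus strand and CD74 at chr5:150412930-150413160 on the minus strand. SPP1 lies at chr4:87975464-87975649 on the plus strand, EMP1 at chr12:13196476-13196715 on the plus strand and PMEPA1 at chr20:57711537-57711722 on the minus strand.
IGFBP5: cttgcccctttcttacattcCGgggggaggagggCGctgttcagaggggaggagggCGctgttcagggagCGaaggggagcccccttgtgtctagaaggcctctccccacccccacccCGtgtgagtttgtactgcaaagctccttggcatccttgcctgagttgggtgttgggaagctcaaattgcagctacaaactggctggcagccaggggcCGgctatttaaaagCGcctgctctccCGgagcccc
MAL: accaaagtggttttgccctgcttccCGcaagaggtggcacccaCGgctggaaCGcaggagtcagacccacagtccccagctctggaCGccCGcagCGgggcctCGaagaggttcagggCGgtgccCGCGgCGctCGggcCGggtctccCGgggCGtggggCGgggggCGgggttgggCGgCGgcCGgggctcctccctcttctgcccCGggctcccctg
CD74: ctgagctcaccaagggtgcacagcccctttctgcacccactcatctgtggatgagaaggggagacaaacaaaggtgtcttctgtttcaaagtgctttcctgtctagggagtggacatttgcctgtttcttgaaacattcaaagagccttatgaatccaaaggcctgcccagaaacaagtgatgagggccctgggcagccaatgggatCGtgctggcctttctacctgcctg
SPP1: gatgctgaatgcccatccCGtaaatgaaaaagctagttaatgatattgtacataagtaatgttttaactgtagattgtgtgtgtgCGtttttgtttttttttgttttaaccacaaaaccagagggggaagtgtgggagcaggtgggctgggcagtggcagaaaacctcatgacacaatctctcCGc
EMP1: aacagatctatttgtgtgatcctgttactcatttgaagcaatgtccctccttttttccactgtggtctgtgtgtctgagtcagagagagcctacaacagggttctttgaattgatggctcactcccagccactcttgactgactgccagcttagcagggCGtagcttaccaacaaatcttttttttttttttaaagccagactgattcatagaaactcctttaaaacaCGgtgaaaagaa
PMEPA1: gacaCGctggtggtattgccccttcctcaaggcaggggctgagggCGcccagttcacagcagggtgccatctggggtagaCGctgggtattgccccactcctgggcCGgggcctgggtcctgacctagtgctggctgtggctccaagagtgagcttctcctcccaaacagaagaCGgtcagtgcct
The runs held 8 CG in IGFBP5, 21 in MAL, 1 in CD74, 3 in SPP1, 2 in EMP1 and 5 in PMEPA1. Over the full 250 bases before the RefSeq start, 99.2% of 6673 promoters of loci with 1 name held at least 1 CG, with a median of 21. In these full windows 12.2% of promoters had as few CG as IGFBP5, 3.63% as few as CD74, 5.17% as few as SPP1 or EMP1 and 9.62% as few as PMEPA1, while 68.8% had no more than MAL. The median was also 21 in the 466 promoters of loci higher than each line, and 20 in the 271 of lower loci. It was 14 in the 127 promoters of loci that both RT4 libraries held above all 4 libraries of the other lines, and 15 in the 64 of loci they held below. DNA methylation was not measured here. TRBC2, C10orf99, RAB38, TOX3, LY6D, KRT13, IGFL2-AS1, PLAT, TSPYL5 and MYEOV had no entry.

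About as many differences lasted in the quisinostat-treated RT4 cells as did not. RT4 quisinostat was at least 1 above the DMSO mean of the other lines at 1474 loci (14.6%) and at least 1 below it at 1147 (11.4%). Both comparisons share the RT112 and SW780 DMSO libraries. Of the 1053 loci higher in RT4 DMSO, 507 (48.1%) were still at least 1 above the mean, 333 kept the sign and 213 lost it. Of the 1075 lower loci, 550 (51.2%) were still at least 1 below, 384 kept the sign and 141 lost it. Of the loci past 1 against each line, 384 of 717 higher (53.6%) and 254 of 452 lower (56.2%) lasted. All 15 of the furthest higher loci and 13 of the 15 furthest lower lasted. A stricter view, chosen after the data had been seen, asks both RT4 libraries to exceed all 4 libraries of the other lines by at least 1, and 218 loci (2.17%) met it. Below all 4 by at least 1 were 140 loci (1.39%). Without the SW780 DMSO library in the mean, the count of higher loci that lasted was 771 rather than 507. The plot of both differences shows the loci that lasted near the diagonal and those that did not near the horizontal axis.

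The genes that moved most between the RT4 libraries were chosen by that move, and their values are a description. SPP1 had 0.069 FPKM in RT4 DMSO and 45.5 in RT4 quisinostat, near the RT112 level of 48.8. IGFL2-AS1 had 0.79 and 59.8 FPKM in the RT4 libraries, against 53.8 in RT112 and 117 in SW780. LGALS1, a secreted galectin, had 0.344 FPKM in RT4 DMSO and 57.0 in RT4 quisinostat, above the 4.25 of RT112 and the 8.28 of SW780. These low genes of untreated RT4 thus came near or passed the DMSO level of RT112. LGALS1 was also high under quisinostat in the other lines, with 67.0 FPKM in RT112 and 114 in SW780, so RT4 stayed lowest among the treated libraries. MMP13, a collagenase, and the pseudogene IGFL1P1 did the same, with 33.6 and 46.8 FPKM in RT4 quisinostat. FASN, the fatty acid synthase, had 48.9 FPKM in RT4 DMSO against 17.3 and 16.6 in RT112 and SW780, and 3.85 in RT4 quisinostat. It was also low in SW780 quisinostat, at 3.07 FPKM, while RT112 quisinostat had 29.1. After GC correction the RT4 DMSO difference of FASN was 0.74, under the limit of 1. MCRIP1, PTPN23, DPP7 and WIZ also went from the highest of the DMSO libraries to 0 or at most 0.226 FPKM in RT4 quisinostat. MCRIP1, PTPN23 and DPP7 were low in SW780 quisinostat too, at 0.0914, 0 and 0.0454 FPKM, from 0.973, 1.33 and 0.652 under DMSO. RT112 quisinostat had 6.51, 1.84 and 4.79 FPKM of them. Other genes moved further from the other lines. RNASE1, a secreted ribonuclease, had 22.2 FPKM in RT4 DMSO, 1.19 in RT112, 0.889 in SW780 and 279.7 in RT4 quisinostat. SELENOP, the selenium carrier protein, had 2.06, 0.0775, 0.259 and 46.3 FPKM in the same order. KRT13 fell further below, to 0.296 FPKM.

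**Figure D3:**
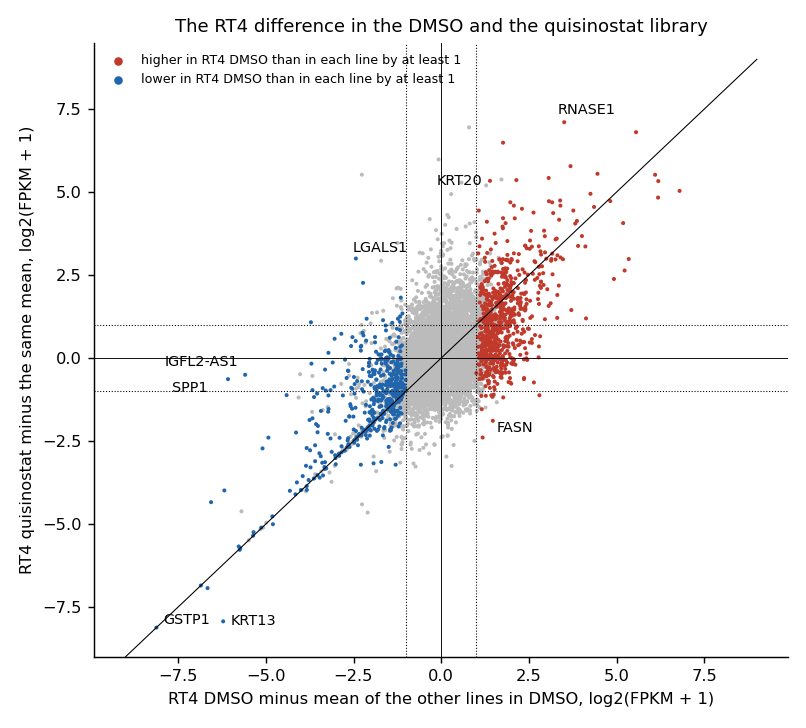
Each point is 1 locus, with the RT4 DMSO difference from the DMSO mean of the other lines on the x axis and the RT4 quisinostat difference from the same mean on the y axis, both in log2(FPKM + 1). Dotted lines mark 1 and -1, and red and blue mark loci past 1 against each line under DMSO. GSTP1 and KRT13 lie at the lower left, while SPP1, at -6.08 and -0.64, lies near the horizontal axis.

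The RT4 DMSO library differed from the other DMSO libraries along the GC content of transcripts, so the counts against each line were also made after a GC correction. Across 8341 loci with a mean of at least 1 FPKM, the Spearman correlation of the difference with transcript GC was 0.39. This is across loci of the same 3 libraries, which share depth and preparation, and loci are not replicates. It was -0.15 for RT4 quisinostat against the same mean, and -0.04 for RT112 against SW780. A tilt of this size was not limited to RT4 DMSO. As deviations from the mean of all 6 libraries, the correlation was 0.41 in RT4 DMSO and 0.36 in RT112 quisinostat, -0.29 and -0.31 in RT4 and SW780 quisinostat, and -0.14 and -0.09 in RT112 and SW780 DMSO. The median difference ran from -0.41 in transcripts under 40% GC to 0.61 in those of 60 to 65%. The higher loci that did not last had a median GC of 60.6%, against 51.6% in those that lasted and 48.2% over all loci. The lower loci that did not last had a median GC of 42.7%, against 48.9% in those that lasted. After subtraction of the GC trend from each difference, 418 loci were higher than each line and 423 lower. The uncorrected counts over the same 9021 loci were 621 and 373. After correction, 316 of 418 higher (75.6%) and 208 of 423 lower (49.2%) lasted. All 30 of the furthest loci still differed by at least 1 from each line. They had been chosen for uncorrected differences of at least 3.75 in size, so this was no check against the GC trend. The part of GC in any single difference was not tested.

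**Figure D4:**
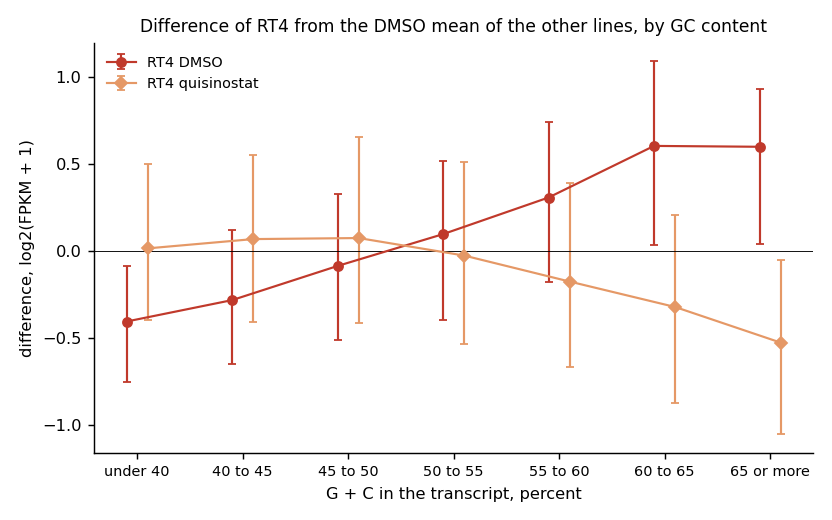
Median difference from the DMSO mean of the other lines, in log2(FPKM + 1), for 7 classes of transcript GC content, with bars from the lower to the upper quartile of loci. RT4 DMSO goes up with GC, from -0.41 to about 0.60, and RT4 quisinostat goes down, from 0.02 to -0.53.

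Luminal urothelial genes lay mostly above the other lines in untreated RT4. Of 37 measured genes of the luminal list, 16 were higher by at least 1 than the mean and 2 lower, 13 and 1 against each line, with a median of 0.68. Over all loci 10.5% were higher and 10.7% lower than the mean, and 7.12% and 4.49% against each line. After GC correction 8 were higher than each line and 2 lower, and the median was 0.75. In RT4 quisinostat the median was 0.13, and 9 of the 16 higher genes lasted, beside 48.1% of all higher loci. CYP4B1, a cytochrome of urothelium, had 161 FPKM in RT4 DMSO, 7.84 in RT112, 11.8 in SW780 and 111.6 in RT4 quisinostat. TMPRSS2, a membrane serine protease, had 18.4, 2.16, 0.232 and 16.4 FPKM in that order. TBX2, a T-box transcription factor, had 15.7, 1.99, 1.55 and 5.62 FPKM. All 3 were high in both RT4 libraries. SPINK1, a secreted trypsin inhibitor, and UPK3A were listed at 0 in RT112 and had 25.5 and 7.90 FPKM in RT4 DMSO. The regulator GATA3 had 41.8 FPKM in RT4 DMSO, 15.7 in RT112, 18.5 in SW780 and 18.4 in RT4 quisinostat, so its difference of 1.24 did not last. FOXA1 had 37.4, 16.5, 20.1 and 28.9 FPKM, a difference of 0.99. PPARG, at 67.3, 86.5, 52.8 and 63.2 FPKM, lay between the other lines.

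The uroplakins did not move as a set. UPK3B had 30.1 FPKM in RT4 DMSO against 6.96 in RT112 and 9.48 in SW780. UPK2 had 51.6, 5.55 and 36.2 FPKM, so it set RT4 and SW780 apart from RT112 and not RT4 alone. UPK1A, at 12.8, 1.27 and 19.2 FPKM, was highest in SW780. UPK1B ran the other way, with 37.5 FPKM in RT4, 166 in RT112 and 117 in SW780. In RT4 quisinostat UPK1A was at 0.178, UPK2 at 6.80 and UPK3B at 8.57 FPKM, all below their RT4 DMSO level, while UPK1B went up to 74.3 FPKM and UPK3A was at 3.60. KRT20, the umbrella cell keratin, had 3.21 FPKM in RT4 DMSO, 1.11 in RT112 and 0.356 in SW780, and 62.7 in RT4 quisinostat. It was thus low in every DMSO library.

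Basal, squamous and mesenchymal genes lay mostly below. Of 28 loci of the basal and squamous list, 1 was higher and 11 lower than the mean by at least 1, none and 4 against each line, with a median of -0.45 in RT4 DMSO and -0.40 in RT4 quisinostat. Over all loci 10.5% were higher and 10.7% lower than the mean, and 7.12% and 4.49% against each line. The DMSO median of the list was -0.16 against SW780 alone, -0.40 against RT112 alone and -0.79 after GC correction. Beside LY6D and KRT13, these 4 were DSC3, a desmosomal cadherin listed at 0 in RT4 against 2.96 and 2.70 FPKM, and ITGA6. ITGA6, the basal laminin receptor chain, had 20.9 FPKM in RT4 DMSO, 73.6 in RT112, 57.8 in SW780 and 76.0 in RT4 quisinostat, so it did not last. TP63, the basal master regulator, was not lower, with 46.5 FPKM in RT4 DMSO, 42.0 in RT112 and 19.7 in SW780. KRT5, which shares its locus with a second name, had 0.0433, 9.63 and 0.447 FPKM, low in RT4 and SW780 alike. Of 11 measured mesenchymal loci none was higher and 7 were lower, 5 against each line, with a median of -1.52 in RT4 DMSO and -0.32 in RT4 quisinostat, both against the DMSO mean of the other lines. Against SW780 alone the DMSO median was -0.98. Their summed level was 19.6 FPKM in RT4 DMSO, 217 in RT112, 257 in SW780 and 76.6 in RT4 quisinostat, of which CAV1 gave 0.263, 59.0, 178 and 4.88 FPKM. Under quisinostat the sum was 475 FPKM in RT112 and 361 in SW780, so RT4 was lowest under both treatments. FN1, the matrix protein fibronectin, had 2.27 FPKM in RT4 DMSO, 18.1 in RT112, 18.7 in SW780 and 23.9 in RT4 quisinostat. TGFBI, a secreted matrix protein, had 1.29, 27.0, 24.3 and 11.7 FPKM in that order. SNAI2, a repressor of epithelial genes, had 2.99, 10.9, 10.0 and 5.94 FPKM. Under DMSO all 3 were lowest in RT4, while FN1 in RT4 quisinostat was above both other DMSO libraries. Against the other lines under quisinostat FN1 was still lowest in RT4, with 91.2 FPKM in RT112 and 44.996 in SW780. VIM, ZEB1 and ZEB2 matched no name of the table, so their levels are unknown.

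Genes of adhesion and of the S100 family divided. Over all loci 10.5% were higher and 10.7% lower than the mean, and 7.12% and 4.49% against each line. Of 46 junction and adhesion loci, 8 were higher and 10 lower than the mean by at least 1, 3 and 5 against each line. Their median was 0.03, with the other sign after scaling to the same sum or quantile normalization. The higher ones included the tight junction proteins CGN (15.8 FPKM in RT4, 3.21 in RT112, 4.54 in SW780) and CLDN4 (40.3, 13.1 and 16.4 FPKM). JUP, the plakoglobin of desmosomes, had 138, 30.4 and 56.1 FPKM. CLDN4 did not last, with a difference of 0.28 in RT4 quisinostat. After GC correction 1 locus was higher than each line and 7 lower. CLDN4 and JUP were then no longer past 1 against each line, while CGN was. The lower ones included the integrin chains ITGB1 (44.95, 132 and 122 FPKM), ITGA2 (11.9, 65.2 and 30.1 FPKM) and ITGA5 (0.683, 2.81 and 2.70 FPKM), all receptors for matrix. Of 11 S100 loci, calcium-binding proteins of epithelia, 1 was higher and 6 lower than the mean by at least 1, 1 and 2 against each line. The median was -1.17, and -0.41 against SW780 alone. S100A2 had 1074 FPKM in RT4, 386 in RT112 and 238 in SW780, while S100A14 had 34.8, 353 and 311 FPKM. S100A2 did not last, at 581 FPKM and a difference of 0.89 in RT4 quisinostat. Relatives of 1 family thus stood at opposite ends of the scale in the same library.

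A list of solute transport genes, named for the apical membrane, was a smaller set with high members. Where the proteins lie in these cells was not measured. Over all loci 7.12% were higher than each line and 4.49% lower, and 53.6% of the higher ones lasted. Of 19 measured loci of the list 6 were higher than each line and none lower, and all 6 lasted and also passed after GC correction. Beside CA12 these were CLCA4, SCNN1B, SCNN1G, SLC44A4 and SLC14A1. CLCA4, a regulator of chloride conductance, had 87.8 FPKM in RT4 DMSO, 14.3 in RT112, 3.43 in SW780 and 55.5 in RT4 quisinostat. SCNN1G, the gamma chain of the epithelial sodium channel, had 17.2, 1.54, 4.48 and 11.6 FPKM, and its beta chain SCNN1B had 9.37 FPKM in RT4, 0.882 in RT112 and 0 in SW780. The alpha chain SCNN1A did not set RT4 apart, at 47.4, 53.9 and 30.7 FPKM. SLC14A1, a urea transporter of urothelium, had 16.5, 7.39 and 3.57 FPKM. The list median was 0.21, 0.49 against SW780 alone, 0.60 against RT112 alone and -0.06 after GC correction, while 13 of the 19 loci were above 0 and 6 below before it.

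MHC class II genes were higher in RT4, mostly at low levels apart from CD74. All 7 loci were above 0 in their difference, 3 by at least 1, and all 3 lasted. Their summed level was 81.7 FPKM in RT4 DMSO, 0.361 in RT112 and 3.71 in SW780, and 349 in RT4 quisinostat. HLA-DRA, the alpha chain of HLA-DR, had 2.42 FPKM in RT4 DMSO, 0.0163 in RT112, 0 in SW780 and 89.5 in RT4 quisinostat. HLA-DMA, which loads peptide and shares its locus with a second name, had 4.94, 0.290, 1.24 and 26.5 FPKM. The median difference of the list was 0.99 in RT4 DMSO and 3.96 in RT4 quisinostat, and the DMSO median was 0.53 against SW780 alone and 1.67 against RT112 alone. Of 14 chemokine, cytokine and NF-kappaB loci 4 were higher than each line and none lower, beside 7.12% and 4.49% over all loci. NFKBIA, the inhibitor of NF-kappaB, had 99.6 FPKM in RT4 DMSO, 16.1 in RT112, 23.9 in SW780 and 72.4 in RT4 quisinostat. RELB, a subunit of the alternative NF-kappaB, had 5.39, 0.398, 0.341 and 2.36 FPKM. IL1RN, the interleukin receptor antagonist, had 43.1, 5.53, 18.4 and 82.3 FPKM. These 3 lasted, and TNFAIP2, at 133, 43.6, 65.1 and 49.6 FPKM, did not. Of 31 interferon-stimulated loci 2 were higher and 8 lower than the mean, beside 10.5% and 10.7% over all loci. Their median was -0.42, and 0.10 against RT112 alone. SAMD9 had 0.697 FPKM in RT4 DMSO, 17.6 in RT112, 19.2 in SW780 and 3.70 in RT4 quisinostat, and OAS2, an RNA sensor enzyme, had 12.1, 1.91, 2.76 and 6.84 FPKM.

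The receptors and fusion partners of the study gave no locus past 1. FGFR3 had 19.96 FPKM in RT4, 17.2 in RT112 and 2.49 in SW780, so the FGFR3 level of RT4 was near that of RT112. TACC3, the partner in RT4 and RT112, had 65.9, 84.5 and 36.4 FPKM. BAIAP2L1, which shares its locus with a second name, was level at 10.1, 9.90 and 11.1 FPKM. A gene-level value sums reads of the fusion and of the unfused copy, and the table does not separate them. Of 19 MAPK feedback genes 3 were higher and 3 lower than the mean by at least 1, beside 10.5% and 10.7% over all loci. The 3 higher, SPRY4, SPRY1 and FOS, were above each line. SPRY4, a feedback inhibitor of receptor signaling, had 13.2, 2.53 and 1.27 FPKM. In the EGFR family, ERBB2 had 41.2 FPKM in RT4 DMSO, 14.1 in RT112, 15.8 in SW780 and 18.2 in RT4 quisinostat. EGFR itself was at 18.4, 18.4 and 20.8 FPKM in the DMSO libraries and ERBB3, at a locus with 2 names, at 64.1, 62.8 and 53.7. The EGFR ligand AREG was lowest in RT4, at 0.613 against 3.41 and 8.67 FPKM, and the feedback inhibitor ERRFI1 had 6.77, 21.1 and 15.2 FPKM. After GC correction neither ERBB2 nor ERRFI1 was past 1 against each line. HDGF, a growth factor that binds chromatin, had 104 FPKM in RT4, 200.4 in RT112 and 173 in SW780, a difference of -0.84. After GC correction its difference was -1.16, and HDGF was then past 1 against each line, the weaker pairwise difference being -1.05.

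Cell cycle genes were lower as a set by a small amount. Of 40 S phase and mitosis loci none was higher and 5 were lower by at least 1, 4 against each line. Over all loci 10.7% were lower than the mean and 4.49% lower than each line. The median of the list was -0.50 in RT4 DMSO and -0.78 in RT4 quisinostat, both against the DMSO mean of the other lines. In RT4 DMSO 31 of 40 were below 0. The summed level was 1407 FPKM in RT4 DMSO, 1859 in RT112 and 1875 in SW780. Under quisinostat it was 1089 FPKM in RT4, 1551 in RT112 and 1129 in SW780, so treated RT4 was near treated SW780. NUF2, a kinetochore protein, had 5.57 FPKM in RT4, 19.1 in RT112 and 20.1 in SW780. CDK1, the mitotic kinase, had 26.7, 62.7 and 56.3 FPKM. AURKA and KIF11 were the other members lower than each line, and after GC correction NUF2 was the 1 member past 1 against each line. In G1 control, CCND2, a D-type cyclin, had 7.44 FPKM in RT4, 0.00885 in RT112, 0 in SW780 and 25.5 in RT4 quisinostat. MYCL, a MYC family factor, had 24.4 FPKM in RT4 DMSO, 3.18 in RT112, 2.79 in SW780 and 5.44 in RT4 quisinostat. CDK6, the partner kinase of D-type cyclins, was low in RT4 at 0.120 FPKM against 3.28 and 4.28.

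Ribosomal protein genes lay mostly above the other lines in untreated RT4, with 67 of 79 above 0. Of 79 cytosolic ribosomal protein genes 17 were higher than the mean by at least 1, 12 against each line, and none was lower. Over all loci 10.5% were higher than the mean and 7.12% higher than each line. None of the 17 lasted, beside 48.1% of all higher loci, and the list median went from 0.61 in RT4 DMSO to -0.01 in RT4 quisinostat. RPL28 had 102 FPKM in RT4 DMSO, 19.8 in RT112, 25.6 in SW780 and 19.6 in RT4 quisinostat. RPS28 had 79.2, 25.2, 6.36 and 23.1 FPKM, and RPL29 had 414, 119, 92.1 and 207 FPKM, a difference of 0.96 in RT4 quisinostat, just under the limit of 1. After GC correction 7 were higher than each line. Ribosomal protein genes have many processed pseudogenes, which can share their reads. Of 77 nuclear-encoded OXPHOS genes, of the respiratory chain, 6 were higher and 1 lower than the mean, smaller shares than the 10.5% and 10.7% over all loci, and 1 of the 6 lasted. This was NDUFA3, of respiratory complex I, with 44.5 FPKM in RT4 DMSO, 5.49 in RT112, 8.18 in SW780 and 17.1 in RT4 quisinostat. The reference genes ACTB (574, 424 and 469 FPKM in the DMSO libraries) and GAPDH (1990, 1304 and 1306 FPKM) were themselves higher in RT4, by 0.36 and 0.61, and by 0.05 and 0.13 after GC correction.

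Metabolic and developmental genes differed one by one, and their counts are against the mean by at least 1. Over all loci 10.5% were higher and 10.7% lower by that measure. Among NRF2 targets, genes of the oxidative stress response, 5 were higher and 10 lower of 35 loci, with a median of -0.27, and of 0.30 against RT112 alone. AKR1C1, an aldo-keto reductase, had 7.60 FPKM in RT4, 39.4 in RT112 and 118 in SW780, and thioredoxin, TXN, had 143, 329 and 318 FPKM. In glycolysis and hypoxia 4 were higher and 7 lower of 31 loci. ENO1, an enolase, had 242 FPKM in RT4, 528 in RT112 and 627 in SW780, while PFKFB4, a regulator of glycolytic flux, had 7.93, 2.39 and 0.751 FPKM. Of 11 measured HOX loci, body-axis regulators, 3 were higher and 3 lower. HOXD1 had 8.58 FPKM in RT4, 0.498 in RT112 and 0.537 in SW780, and HOXA11 had 4.29, 0.224 and 0.110 FPKM. HOXD1, HOXA11 and HOXA7 lasted. In the TGF-beta and BMP pathway 6 were higher and 2 lower of 19 loci. BAMBI, a decoy receptor, had 19.1 FPKM in RT4 DMSO, 2.46 in RT112, 3.17 in SW780 and 38.8 in RT4 quisinostat, and the receptor TGFBR1 had 0.319, 2.36, 4.10 and 1.25 FPKM. Among secreted epithelial proteins AGR2, a disulfide isomerase of mucous cells, had 179, 48.9, 40.3 and 204 FPKM, while CEACAM6 had 0.0493, 21.1, 89.5 and 0.0259 FPKM. The plot of gene groups shows each member and the medians named above.

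**Figure D5:**
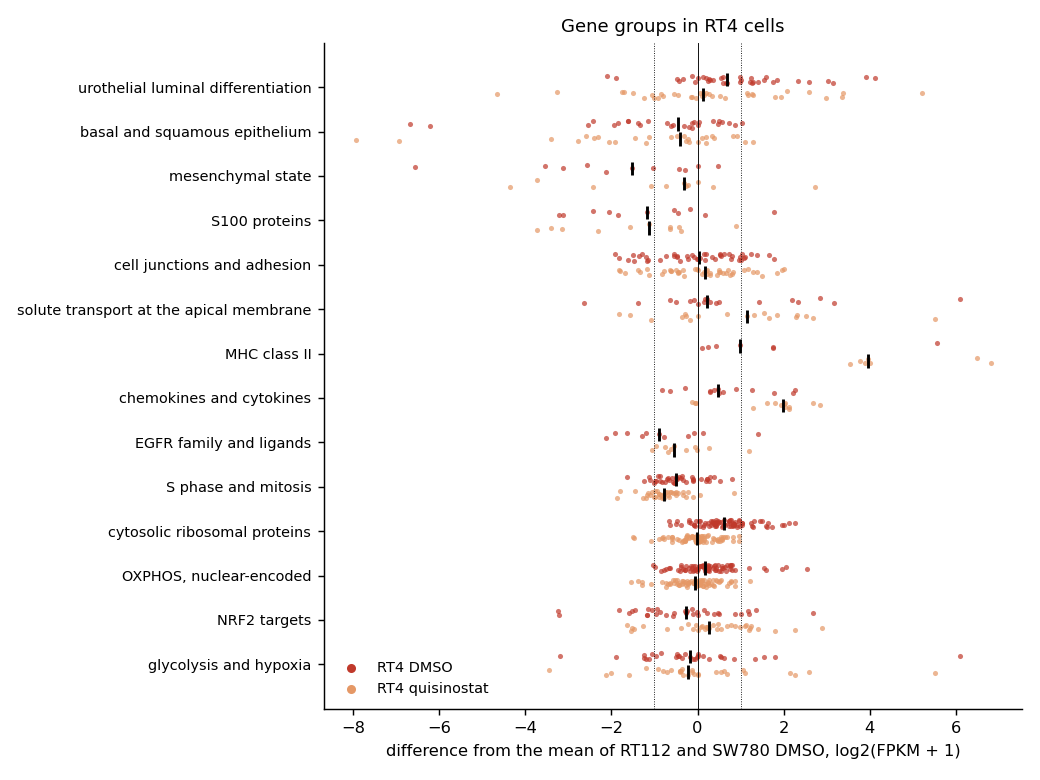
Differences from the DMSO mean of RT112 and SW780, in log2(FPKM + 1), for the members of 14 gene groups. Each point is 1 gene, red for RT4 DMSO and orange for RT4 quisinostat, black bars are group medians and dotted lines mark 1 and -1. The ribosomal protein median goes from 0.61 to -0.01, the MHC class II median from 0.99 to 3.96 and the mesenchymal median from -1.52 to -0.32.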

How the data were processed

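RNA of RT4, RT112 and SW780 cells, treated with DMSO or quisinostat for 2 days, was prepared with a stranded polyadenylated-RNA kit and sequenced, with 1 library each. Samples were grouped by their titles; the cell line of the SW780 quisinostat sample is misspelt in a further label. Per the submitters' processing notes, the authors used CASAVA 1.8.2, Trimmomatic 0.36, HISAT2 2.2.1, SAMtools 1.15.1 and StringTie 2.2.1 with GRCh38. The deposited values are gene FPKM, with no read counts, so the depth per library is unknown and no interval for counting error could be given. The table's 10515 rows hold 10066 loci, of which 8772 had 1 gene name, 377 several and 917 none; rows repeating a locus were merged. From the FPKM values deposited by the authors, log2(FPKM + 1) was computed here, with Python 3.11.15, pandas 2.3.3, NumPy 2.4.6, SciPy 1.17.1 and statsmodels 0.14.6. A locus was called at a difference of 1. With 1 library per line and treatment no test was made, whole reads could not be recovered from FPKM, and no p-value is given. The code was tested on simulated data. Transcript GC, position and gene type came from GENCODE 29 for 9021 loci (89.6%). The GC trend of each difference between libraries was taken with lowess at a span of 0.3.

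The named genes were the 15 loci with 1 name furthest above and the 15 furthest below both lines by the weaker pairwise difference, up to 4 members per gene list and direction past 1 against each line, 17 genes of the study's subject, and the 5 of each kind that moved most in RT4 quisinostat; members given beside these to describe a list were chosen after their values were seen. The members and gene lists were chosen with earlier results of these data known. Alternatives were other pseudocounts, limits, filters, scalings and leaving out 1 comparator line. Results for a few items named by this rule are not reported here.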

Additional observations from a re-analysis of the deposited data

How the results depend on the processing

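No paired analysis was possible because each line and treatment has 1 library and all carry the same replicate number. With a pseudocount of 0.1 in place of 1, 1685 loci were lower than the mean and 851 lower than each line, and 798 higher and 859 lower loci lasted; with 0.01 these counts were 1808, 960, 844 and 920. With a limit of 2, 187 loci were higher and 235 lower than the mean, 133 and 93 against each line, and 95 and 133 lasted; with 0.58 the counts were 2081, 2293, 1485, 1221, 1029 and 1207. Fewer or more loci follow from these settings by construction. With GC correction 643 loci were higher than the mean and 418 higher than each line, fewer than the 917 and 621 of the same loci uncorrected. Where lasting meant only the same sign, 840 and 934 loci lasted. Leaving out 1 comparator line gave 632 to 771 higher loci that lasted, 771 without SW780 DMSO. The cause was not tested for the GC correction or the comparator line. Centring, scaling to the same sum, quantile normalization, a mean of logs, a minimum mean of 1 FPKM and single-name loci kept every count within 1.5 times, as did leaving out loci listed at 0, which was chosen after seeing the data. Of 142 named loci past 1, none changed sign under 9 alternatives, and 18 fell below 1 under at least 1 of them, 16 of these under GC correction. Most of these loci were named because they were past 1 against each line, so the kept sign is no check of them. Of 33 group medians 15 changed sign under at least 1 alternative, none of them as far from 0 as 1. The main limits are 1 library per line, a medium that differs with the line, unknown depth and zeros at loci with high levels elsewhere.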

Other observations

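Loci were also set out by position after the data had been seen, so the following are values only. Of 142 windows of 20 Mb with at least 20 loci, 1 had a median difference over 0.5 after GC correction, and 7 were under -0.5. The first was chromosome 3 from 40 to 60 Mb, where 106 of 118 loci were above 0, 44 were higher than each line and none lower. Its median was 0.94 in RT4 DMSO, 0.63 in RT4 quisinostat and 0.84 after GC correction. Against RT112 alone the median was 1.01 and against SW780 alone 0.90. A run of 7 neighbouring loci higher than each line, from KLHL18 to MAP4, lay within it, and 1 of the 7 lasted. On chromosome 19, 101 of 599 loci (16.9%) were higher than each line, with a median of 0.72 in RT4 DMSO, 0.00 in RT4 quisinostat and 0.26 after GC correction, and a median GC of 59.1%. On chromosome 21 the median was -0.57 in RT4 DMSO, -0.71 in RT4 quisinostat and -0.66 after GC correction over 99 loci. Of chromosome 15, 25 of 288 loci (8.68%) were higher than each line and 2 (0.694%) lower. Over all loci these shares were 7.12% and 4.49%. The chromosome 15 median was 0.25 in RT4 DMSO and 0.43 in RT4 quisinostat. Beside chromosome 19, chromosomes 3, 22, 17 and 14 also had larger higher shares, of 11.3%, 10.1%, 9.63% and 9.58%. DNA copy number was not measured here.

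Among lists not described above, 5 of 28 Wnt and Notch loci were higher than the mean by at least 1 and 3 lower, and none lasted. LRP5, a Wnt coreceptor, had 17.1 FPKM in RT4 DMSO, 5.45 in RT112, 5.39 in SW780 and 1.99 in RT4 quisinostat. Of 34 cholesterol and fatty acid loci 2 were higher and 3 lower, smaller shares than the 10.5% and 10.7% over all loci. Among drug and retinoid genes 3 were higher and 8 lower of 26 loci. Of 13 cancer-testis loci 1 was higher and 4 lower.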
